A study of Mus musculus with 5 samples.

Results

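Pax3, Pax7, Msx1, Msx2, Zic1, Zic2, Zic5, Lmx1a and Olig3, 9 transcription factor genes used as markers of the dorsal neural tube, were followed through an in vitro differentiation of mouse embryonic stem (ES) cells to spinal motor neurons, which are ventral cells. The genes were chosen by name, and all their probes were taken: 11 probes, among 26300 probes that matched 19897 gene symbols. RNA was measured on Agilent one-colour microarrays, 1 array per time point. The groups, all male and wild type by their labels, were undifferentiated ES cells (ES), embryoid bodies after 8 h of retinoic acid, RA (Day2), embryoid bodies after 1 day (Day3) and 2 days (Day4) of RA, and motor neurons after 5 days of RA (Day7). The labels state that RA and Shh were given together between day 2 and day 5, whereas the study's methods name the smoothened agonist SAG in place of Shh. By either protocol the embryoid bodies and motor neurons had RA together with a ventralizing agent, and no group had RA alone. Which of the study's ES lines was put on the arrays is not stated in the sources used here, and each value is a mean over all cells of the culture. With 1 array per time point there were no replicates and no test was made, and the ± given with a level is the scanner software's error for that spot, which covers the array only. A lower signal in such bulk RNA cannot tell fewer expressing cells from less RNA in each of them.

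The neural tube is patterned along its dorsoventral axis by opposing signals. BMP and Wnt proteins from the surface ectoderm and the roof plate specify dorsal progenitors, the neural crest and dorsal interneurons, and Shh from the notochord and the floor plate specifies ventral progenitors, among them those of motor neurons. Pax3 and Pax7 are paired-domain factors of the dorsal progenitors that Shh represses, Msx1 and Msx2 are homeodomain factors that respond to BMP, Zic1, Zic2 and Zic5 are zinc finger factors of the dorsal neural tube that also act in early embryonic cells, Lmx1a is a LIM homeodomain factor of the roof plate, and Olig3 is a bHLH factor of the most dorsal progenitors. The question put to the arrays was whether dorsal genes were present under a ventralizing treatment.

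The differentiation was visible in the fixed marker lists. From ES to Day7, 9 of 10 motor neuron genes passed the 2-fold size rule used throughout and were higher (median in log2 5.66). By that rule 8 of 10 pluripotency genes were lower (median -3.82). Over all genes with a value, 23.2% were higher and 24.4% lower. The Day2 array stood apart at low signal: 86.7% of its probes were well above background by the scanner flag, against 57.5% to 65.7% on the other arrays, and the same held for 64.6% of the spike-in (ERCC) probes, against 4.17% to 9.38%, and for 70.0% of olfactory receptor probes, against 8.74% to 14.1%. Dim genes on Day2 are therefore also judged against the level that 95% of the spike-in probes did not exceed, a log2 signal of 7.39 on that array. The Day7 array alone was hybridized on a second slide, so that the time point and the slide cannot be told apart.

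Most of the dorsal factors were measurable before any RA was given. The chosen probe, the brightest of each gene, was well above background for 8 of 9 genes in ES, 9 in Day2, 8 in Day3, 8 in Day4 and 6 in Day7. Over all genes the share was 73.0% in ES, 91.7% in Day2, 72.7% in Day3, 77.6% in Day4 and 76.2% in Day7. Against the spike-in level the number of dorsal factors was 7 in ES, 6 in Day2, 8 in Day3, 8 in Day4 and 6 in Day7, beside 64.3%, 59.1%, 72.7%, 74.7% and 75.7% of all genes. The dorsal factors below it on Day2 were Pax3, Pax7 and Lmx1a. The plot of log2 signals by array shows all 11 probes.

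**Figure D1:**
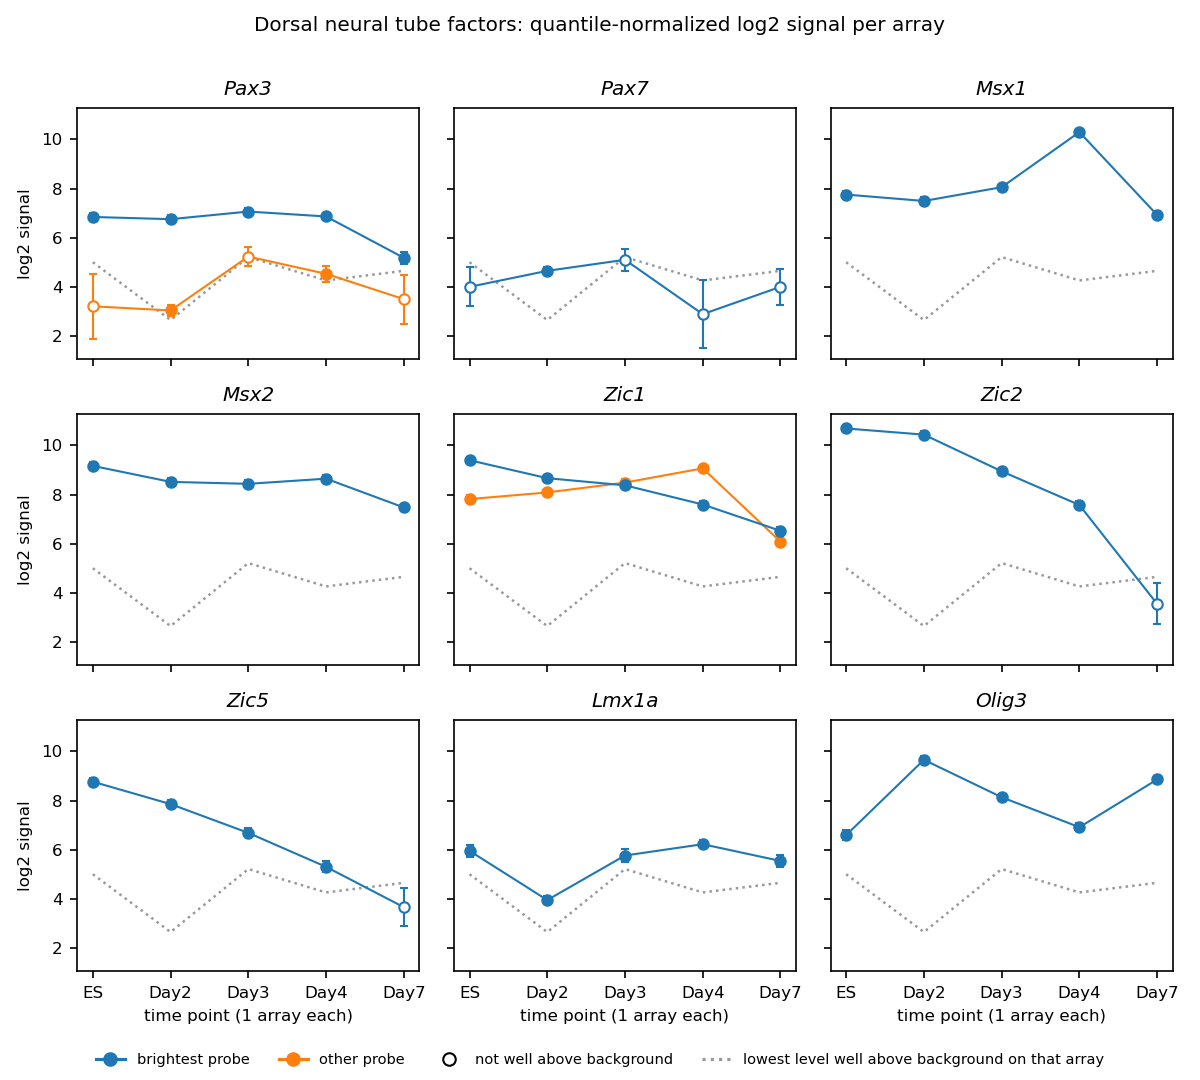
Quantile-normalized log2 signal (vertical axis) of each dorsal factor on the 5 arrays (horizontal axis, 1 array per time point), with bars for the scanner software's error, open points for probes not well above background and a dotted line for the lowest level that was well above background on each array. Zic2 and Zic5 descend to open points in Day7, Msx1 peaks at 10.30 in Day4, Olig3 has high points in Day2 and Day7, and the probes of Zic1 cross.

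Of the paired-domain genes, Pax3 was measured at a low level until Day4 and a lower one in Day7, and Pax7 was not measured outside Day2. Levels are given as quantile-normalized log2 signals. The brighter Pax3 probe gave 6.85 ± 0.17 in ES, 6.76 ± 0.15 in Day2, 7.07 ± 0.16 in Day3, 6.87 ± 0.15 in Day4 and 5.19 ± 0.25 in Day7. Neighbouring levels among the first 4 arrays differed by less than 2 combined errors, whereas Day7 was below the next array by 1.57. Pax3 was thus 3.16-fold lower in Day7 than in ES and 3.20-fold lower than in Day4. Its course through Day2 depended on the processing: over the settings the log2 change ran from -1.03 to 0.88 from ES to Day2 and from -1.24 to 1.25 from Day2 to Day3, and the latter was called higher with the mean over both probes and lower without normalization. The Day7 call against ES failed only after normexp background correction (log2 change -0.82), and that against Day4 failed under 3 of 9 settings, with a range of -1.99 to -0.67. The second Pax3 probe lay near the limit of detection and was printed 10 times on each array. Of its spots, 0 of 9 were well above background in ES, 10 of 10 in Day2, 4 of 10 in Day3, 6 of 10 in Day4 and 0 of 9 in Day7, outlier spots being left out. Its median spot signal was 8.32 in ES, 36.7 in Day2, 20.1 in Day3, 12.5 in Day4 and 8.69 in Day7, before normalization, and the SD of log2 signal between spots was 0.32 to 0.74. No fold could be given for this probe between any pair of arrays compared.

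Pax7 is the Pax3 paralogue that remains in a wide dorsal domain of the neural tube. Its single probe had log2 signals of 4.01 in ES, 4.66 in Day2, 5.11 in Day3, 2.90 in Day4 and 4.01 in Day7. Only the Day2 value was well above background, on the array where most spike-in probes were as well, and it lay below the spike-in level of that array. Pax7 had no fold in any comparison, although without normalization and after the 75th percentile shift it was called higher in Day2 than in ES.

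The Msx genes parted in Day4, where Msx1 rose and Msx2 did not. Msx1 had a log2 signal of 7.76 ± 0.15 in ES, 7.50 ± 0.15 in Day2, 8.06 ± 0.15 in Day3, 10.30 ± 0.14 in Day4 and 6.93 ± 0.15 in Day7. By the chosen probes, Msx1 was the one dorsal factor at least 2-fold higher in Day4 than in ES (5.80-fold), and most of that step fell between Day3 and Day4 (4.72-fold). It was then 10.3-fold lower in Day7 than in Day4. These 3 differences passed 2-fold under all 9 other settings, with ranges of 1.65 to 2.61, 1.89 to 2.34 and -3.53 to -2.21 in log2. The levels in ES, Day2 and Day3 did not differ from their neighbours in order by more than 2 combined errors.

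Msx2 had its highest level in ES and its lowest in Day7. Its log2 signal was 9.17 ± 0.15 in ES, 8.52 ± 0.14 in Day2, 8.44 ± 0.15 in Day3, 8.65 ± 0.15 in Day4 and 7.48 ± 0.15 in Day7. Msx2 was 3.23-fold lower in Day7 than in ES, past 2-fold under all 9 settings. The fall from Day4 to Day7 (2.25-fold) was not called without normalization or after normexp. Msx3, the third gene of the family, which is restricted to the dorsal neural tube, was 2.50 higher in log2 in Day4 than in ES, with a range over settings of 1.41 to 2.64.

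Msx1 was set beside the other genes known to respond to BMP. Of the 7 BMP target genes in the fixed list (Id1, Id2, Id3, Id4, Smad6, Smad7 and Bambi), 6 had a value from Day3 to Day4, and 5 of these rose at least 2-fold, against 3.62% of all genes. The log2 changes were 2.78 for Id3, 2.58 for Id1, 2.37 for Id2, 1.50 for Id4 and 1.07 for Smad7, and the count was 4 to 5 over the other settings. The Id genes encode inhibitors of bHLH factors, and Smad7 an inhibitor of the pathway. These genes differed from Msx1 in the first step: from ES to Day2, 5 of the 7 fell at least 2-fold, against 11.3% of all genes. The log2 changes were -4.86 for Id1 and -3.11 for Id2, while Msx1 stood at -0.26. Over the whole span from ES to Day4, 2 of the 6 target genes with a value rose and 1 fell, with a median of 0.39. Of all genes, 15.4% were higher and 14.2% lower over that span. Msx2 changed by 0.21 in log2 from Day3 to Day4. From ES to Day4, Bmp2, a ligand, rose by 4.04, Bmp7 rose by 2.19 and Bmp4 fell by 1.66 in log2, all called under each setting.

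**Figure D2:**
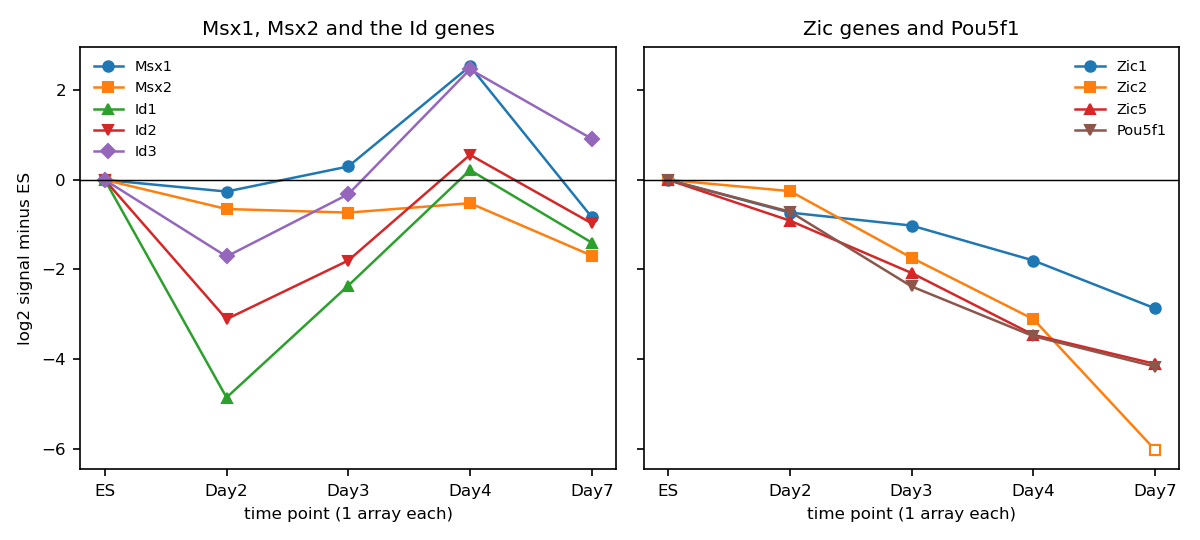
Log2 signal on each array minus that in ES (vertical axis) for the Msx and Id genes (left) and for the Zic genes with Pou5f1 (right), at the 5 time points (1 array each); open points mark a probe that was not well above background and stands at the lowest measurable level. Msx1 and Id3 reach similar heights in Day4 (2.54 and 2.46), whereas Id1 and Id2 start that rise from far below ES, and Zic5 runs beside Pou5f1.

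Zic2 and Zic5 had their highest levels in ES and declined with time, whereas the probes of Zic1 did not share a course. Zic2 had a log2 signal of 10.69 ± 0.14 in ES, 10.44 ± 0.14 in Day2, 8.95 ± 0.15 in Day3 and 7.58 ± 0.15 in Day4, and it was not well above background in Day7. It was 3.34-fold lower in Day3 than in ES, 8.63-fold lower in Day4 and at least 65.6-fold lower in Day7. That limit, -6.03 in log2, was -5.76 at the spike-in detection level and -4.31 after normexp. The ES and Day2 levels differed by less than 2 combined errors (0.25 and 0.20), and each later measured step was beyond them.

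Zic5 lies next to Zic2 in the mouse genome. Its log2 signal was 8.77 ± 0.15 in ES, 7.86 ± 0.15 in Day2, 6.69 ± 0.18 in Day3 and 5.31 ± 0.22 in Day4, and it too was not well above background in Day7. Each of these levels was below the one before it by more than 2 combined errors. Zic5 was 4.23-fold lower in Day3 than in ES, 11.0-fold lower in Day4 and at least 17.3-fold lower in Day7, a limit of -4.11 in log2 that was -3.84 at the spike-in level and -2.50 after normexp. From Day4 to Day7 its change had only a limit of -0.66, short of 2-fold. The falls of Zic2 and Zic5 from ES to Day3 and to Day4 were called under all 9 settings. Those to Day7 were called under all but the one that asks for a measured level on both arrays, which gives them no value.

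Zic1 gave opposite answers with its 2 probes until Day4. The brighter probe went from 9.40 ± 0.14 in ES to 8.67 ± 0.14 in Day2, 8.38 ± 0.15 in Day3, 7.60 ± 0.15 in Day4 and 6.53 ± 0.16 in Day7. The other probe, assigned to the same transcript, went from 7.82 ± 0.15 in ES up to 8.09 ± 0.14 in Day2, 8.49 ± 0.15 in Day3 and 9.07 ± 0.14 in Day4, and down to 6.09 ± 0.18 in Day7. From ES to Day4 the first was 3.47-fold lower and the second 2.37-fold higher, so that the direction of Zic1 by Day4 is not settled by these arrays. Both probes were lower in Day7 than in ES, by 7.32-fold and 3.32-fold, and than in Day4, by 2.11-fold and 7.86-fold.

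Zic4, the neighbour of Zic1, was well above background in Day2 alone, with a log2 signal of 7.05 that lay below the spike-in level of that array. Of the 9 genes of the primed epiblast list, which holds Zic2 and Zic5 themselves, 8 fell at least 2-fold from ES to Day4 and 8 from ES to Day7. The shares of all genes that fell were 14.2% and 24.4%. Otx2, with a log2 change of -7.16 from ES to Day4, Pou3f1, with -4.99, and Fgf5, with -4.94, fell further than either Zic gene over the same interval.

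Olig3 was the one dorsal factor with a higher level in Day7 than in ES, Pax7 having no value. Its log2 signal was 6.60 ± 0.19 in ES, 9.66 ± 0.14 in Day2, 8.14 ± 0.15 in Day3, 6.92 ± 0.16 in Day4 and 8.86 ± 0.15 in Day7. The course had an early peak, a return to a level within 2 combined errors of ES in Day4 (difference 0.31, combined error 0.25), and a second high value in Day7. Olig3 was 8.32-fold higher in Day2 than in ES, 4.79-fold higher in Day7 than in ES and 3.85-fold higher in Day7 than in Day4, each under all 9 settings. Its Day2 signal was above the spike-in level of that array. The second high value rests on the array of the second slide.

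The other Olig genes, which are markers of motor neuron progenitors and oligodendrocytes, ran another course. Olig2 had log2 signals of 10.34 in ES, 8.47 in Day2, 7.87 in Day3, 11.47 in Day4 and 7.35 in Day7. Where Olig3 fell by 1.22 in log2 from Day3 to Day4, Olig2 rose by 3.61, and where Olig3 rose from Day4 to Day7, Olig2 fell by 4.12. Shh, the ligand gene of the floor plate, rose from Day4 to Day7 as well, by at least 8.43 in log2.

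Lmx1a, the roof plate gene, stayed close to the limit of detection. Its log2 signal was 5.96 ± 0.23 in ES, 3.96 ± 0.18 in Day2, 5.77 ± 0.26 in Day3, 6.23 ± 0.17 in Day4 and 5.55 ± 0.23 in Day7. Apart from Day2, neighbouring levels differed by less than 2 combined errors. The low Day2 value, 3.99-fold below ES, was called under 4 of 9 other settings, and from Day2 to Day3 the log2 change of 1.80 turned to -0.14 after the 75th percentile shift. Lmx1b, its paralogue in dorsal interneurons, and the roof plate ligand genes Gdf7 and Wnt1 did not pass 2-fold from ES to Day4 or to Day7. Wnt1 was well above background on every array, with log2 signals of 10.81 in ES, 10.71 in Day4 and 10.14 in Day7. Over the settings its change from ES to Day4 ran from -1.17 to 0.21. Wnt3a was not well above background on any array.

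Counted over the 9 genes, falls outnumbered rises in each comparison but ES to Day2, although after normexp Day3 to Day4 had 1 of each. From ES to Day2, 1 gene rose (Olig3) and 1 fell (Lmx1a) of 9 with a value (Pax7 among them with no fold), against 8.82% of all genes higher and 11.3% lower. From ES to Day3, 1 of 8 rose (Olig3) and 3 fell (Zic2, Zic5 and, by its brighter probe, Zic1), against 14.2% higher and 10.2% lower. From ES to Day4, 1 of 8 rose (Msx1) and the same 3 Zic genes fell, against 15.4% higher and 14.2% lower. From ES to Day7, 1 of 8 rose (Olig3) and 5 fell (Pax3, Msx2, Zic1, Zic2 and Zic5), against 23.2% higher and 24.4% lower. Over the other settings the number higher was 1 to 2, 0 to 2, 1 and 1 in these comparisons, and the number lower 0 to 2, 2 to 4, 2 to 4 and 3 to 5. The 4 comparisons share the ES array. In log2, the median over the dorsal factors was -0.26, -0.46, -0.25 and -1.68, beside 0.00, 0.06, 0.01 and -0.07 over all genes with a value.

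Between successive arrays, 1 gene rose (Lmx1a) and 3 fell (Zic2, Zic5 and Olig3) from Day2 to Day3, against 13.0% of all genes higher and 7.76% lower. Over the other settings the number higher was 0 to 2 and the number lower 2 to 7, the most without normalization, where Pax3, Pax7, Msx2 and Zic1 were called lower as well. From Day3 to Day4, 1 rose (Msx1) and the same 3 fell, against 3.62% higher and 4.85% lower. The number lower was 1 to 4 over the other settings, and after normexp it was 1, the changes of Olig3 and Zic5 being -0.96 and -0.67 in log2. From Day4 to Day7, 1 rose (Olig3) and 5 fell (Pax3, Msx1, Msx2, Zic1 and Zic2), against 17.8% higher and 18.1% lower. The median over the dorsal factors was then -1.12 in log2, beside -0.12 over all genes. After normexp or without normalization the number that fell from Day4 to Day7 was 2.

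**Figure D3:**
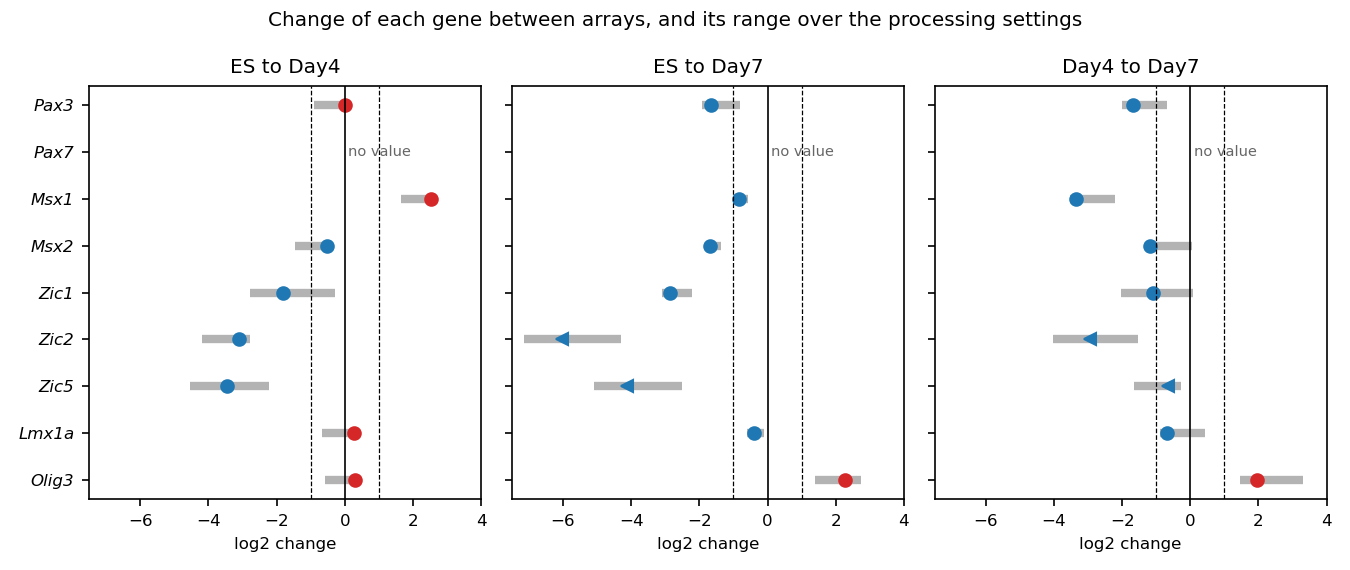
Log2 change (horizontal axis) of each dorsal factor from ES to Day4, ES to Day7 and Day4 to Day7, with red for higher, blue for lower, a left-pointing triangle for a bound (at least this much lower) and a grey bar for the range over all processing settings; dashed lines mark 2-fold. The grey bars of Zic2 and Zic5 from ES come no nearer to 0 than -2.22, that of Msx1 to Day4 begins at 1.65, and Pax7 has no value.

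Other genes of the dorsal neural tube gave a mixed picture in Day4. Of 14 dorsal and intermediate progenitor genes (bHLH and homeobox), 13 had a value from ES to Day4. Past 2-fold, 7 of these rose and 2 fell, against 15.4% of all genes higher and 14.2% lower. The list's median was 1.68 in log2, and over the other settings 5 to 7 rose and 1 to 3 fell. Among the genes that rose were Dbx1, a factor of progenitors near the middle of the tube (at least 6.38), Neurog2, a proneural gene that also acts in motor neuron progenitors (at least 5.36), Irx3, of intermediate progenitors (3.14), and Dbx2 (2.42). Gsx1, a dorsal progenitor gene, fell by 2.68. Atoh1, of the most dorsal progenitors, was flagged well above background in ES and Day2 but not in Day3, Day4 or Day7. Its log2 signals of 6.09 in ES and 3.13 in Day2 were both below the spike-in level of the array, 6.58 and 7.39.

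From Day4 to Day7 the progenitor genes parted. Of the 12 with a value, 6 fell and 2 rose (4 to 7 and 1 to 3 over the other settings). Of all genes, 18.1% were lower and 17.8% higher. The largest falls on the list were those of Dbx1 (at least 6.74 in log2) and Neurog2 (-3.31). Irx5 rose by 2.14 and Irx3 went further up, from a log2 signal of 10.92 to 11.97 (0.93 to 2.25 over the settings). Pax6, the Pax gene of intermediate and ventral progenitors, had risen by 3.51 from ES to Day4 and fell by 5.11 from Day4 to Day7.

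Genes of dorsal interneurons showed no common rise. Of 20 on the list, 15 had a value from ES to Day7, and 3 rose and 4 fell (1 to 3 and 3 to 5 over the other settings). The list's median was -0.52, and of all genes 23.2% were higher and 24.4% lower. Skor1 rose by 3.93 and Lhx5 by 1.21, whereas Foxd3, a gene of pluripotent cells, the neural crest and dorsal interneurons, fell by 4.29 and Pou4f2 fell by 1.67. Well above background were 13 of the 20 in Day4 and 13 in Day7, beside 77.6% and 76.2% of all genes. Barhl1 (log2 signals of 10.20 and 9.93) and Pou4f1 (9.08 and 8.86) were so on every array. Gbx1 went from 5.99 in ES to 9.47 in Day4 and 5.28 in Day7. Barhl2, Prrxl1 and Skor2 were not well above background on any array, and Tlx3 was in Day2 alone, at 3.39 in log2, below the spike-in level. Among the 12 dorsal signal genes, 9 had a value from ES to Day7, and 1 rose and 2 fell, beside the same 23.2% and 24.4%.

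The neural crest and ventral lists had positive medians in Day7. Of 16 neural crest genes, 14 had a value from ES to Day7, with a median of 0.86. Of these, 7 rose and 2 fell, against 23.2% of all genes higher and 24.4% lower. Over the other settings 4 to 9 rose. Among those that rose were Sox9 (at least 5.52), Ngfr (4.98) and Ednrb (4.58). Sox9 is also known from glial progenitors and Ngfr from motor neurons. Of other genes on this list, Foxd3 fell, Sox10 stood at 0.07, and Tfap2b was well above background in Day4 alone. Tfap2a, Snai2, Twist1 and Ets1 were well above background on every array, though all but Twist1 lay below the spike-in level in Day2. Of the 16 genes, 15 were well above background in Day4 and 14 in Day7, beside 77.6% and 76.2% of all genes. Of 15 ventral progenitor and floor plate genes, all 15 had a value from ES to Day7, with a median of 2.37. Of these, 10 rose and 4 fell, against the same 23.2% higher and 24.4% lower. Among the ventral genes that rose were Shh (at least 7.70), Nkx6-1 (7.59) and Foxa2 (7.54). From ES to Day4, 13 ventral genes had a value, and 8 rose and 2 fell, against 15.4% of all genes higher and 14.2% lower. The largest rises on the ventral list were those of Nkx6-1 (6.01), Foxa2 (4.94) and Nkx2-9 (4.61). The count of ventral genes that rose to Day7 was 8 to 10 over the other settings, and that of the dorsal factors was 1 under each.

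**Figure D4:**
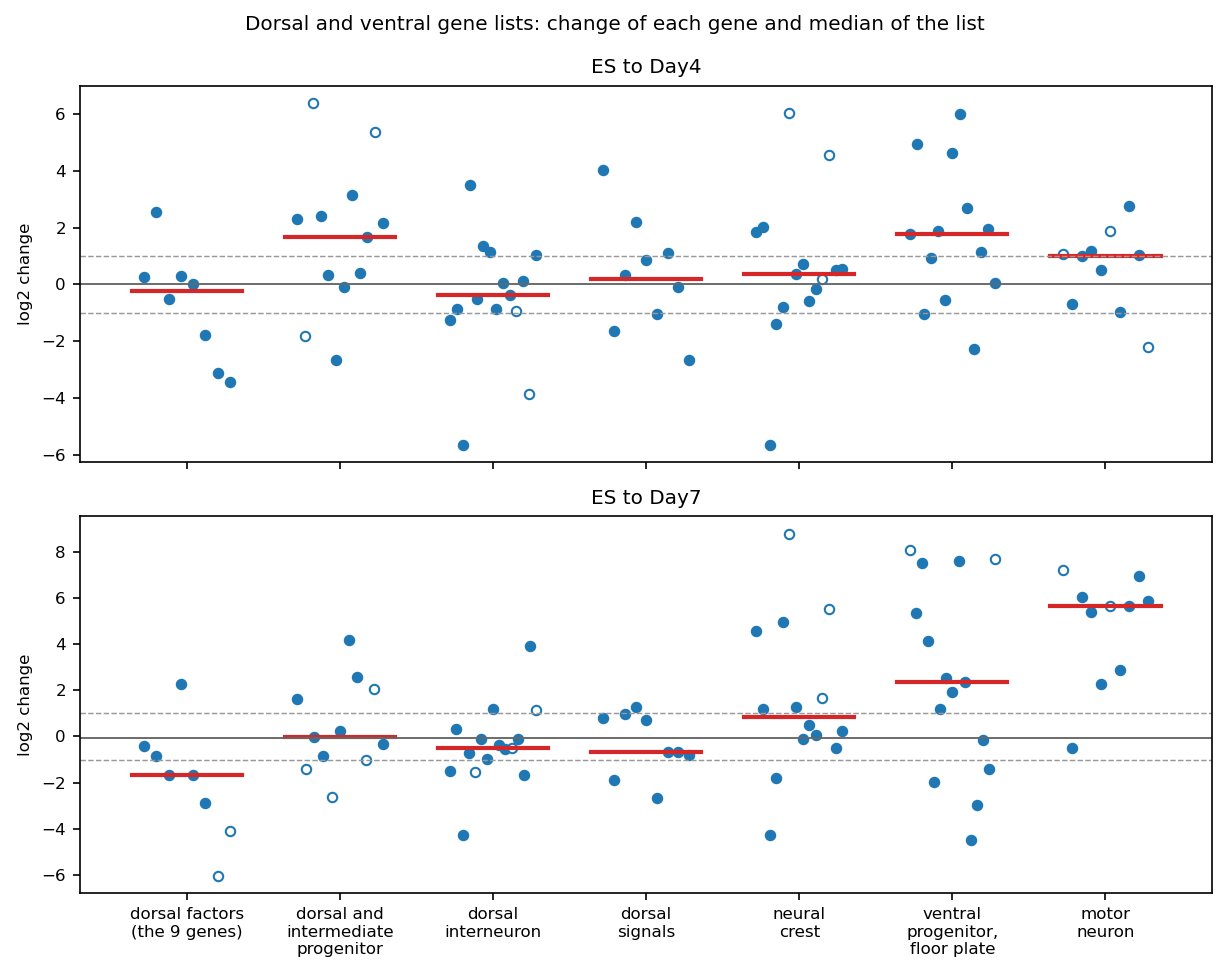
Log2 change (vertical axis) from ES to Day4 (top) and from ES to Day7 (bottom) of each gene in 7 lists (horizontal axis), with open points for bounds, red bars for list medians in which genes without a fold count as 0, a grey line for the median of all genes and dashed lines at 2-fold. The dorsal factors have a median of -1.68 in Day7, beside 2.37 for the ventral list and 5.66 for the motor neuron list.

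The genes whose course over the 5 arrays was most like that of each dorsal factor were found among 13614 genes with a range of at least 1 log2 unit, by the root mean square difference of profiles centred on their means. For Zic5 they were Pcolce2 (0.14), Gdf3 (0.15) and Pou5f1 (0.16), for Zic2 Epha1 (0.23), Slc22a7 (0.41) and Sec14l4 (0.47), and for Zic1, by its brighter probe, Calml4 (0.09), Alg13 (0.10) and Bcat2 (0.10). Zic2 and Zic5 entered in Day7 at the lowest level well above background, 4.66 in log2, in place of a measured level. Their likeness to other genes in Day7 therefore depends on that limit. For Msx1 they were Ppbp (0.18), Pdha2 (0.24) and Ltbp1 (0.26), and for Msx2 Slc29a2 (0.06), Tdrp (0.07) and Lhb (0.08). For Olig3 they were Scn2b (0.33), Oasl1 (0.39) and Cadps2 (0.41), for Lmx1a Slc6a4 (0.12), Usp17la (0.13) and Fxyd4 (0.13), and for Pax3 Plcd3 (0.03), Ube2t (0.06) and Cep152 (0.06). Pax7 did not vary enough to be compared. Between the dorsal factors themselves the closest pair was Pax3 and Msx2 (0.36).

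Promoter sequence, which the choice of genes did not use, was available for 7 of the 9 genes (RefSeq, GRCm38.p6, 250 bases before to 50 after the start). The 250 bases upstream are shown, 5′ to 3′ on the strand of the gene, for the genes that rose in Day4 (Msx1), declined at each step from ES to Day4 (Zic5) and was high in Day2 and Day7 (Olig3), with CpG dinucleotides in capitals. They lie at chr5:37824586-37824835 (minus strand), chr14:122465659-122465908 (minus strand) and chr10:19356289-19356538 (plus strand).
Msx1: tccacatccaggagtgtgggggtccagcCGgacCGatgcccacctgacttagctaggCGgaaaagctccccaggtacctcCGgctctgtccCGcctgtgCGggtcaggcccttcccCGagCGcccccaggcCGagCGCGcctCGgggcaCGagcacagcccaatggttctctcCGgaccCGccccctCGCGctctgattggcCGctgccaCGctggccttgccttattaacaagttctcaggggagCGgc
Zic5: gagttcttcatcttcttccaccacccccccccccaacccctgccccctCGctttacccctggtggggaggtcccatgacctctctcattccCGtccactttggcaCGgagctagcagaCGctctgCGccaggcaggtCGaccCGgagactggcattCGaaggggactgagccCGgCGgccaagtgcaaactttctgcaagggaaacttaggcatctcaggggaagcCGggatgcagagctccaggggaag
Olig3: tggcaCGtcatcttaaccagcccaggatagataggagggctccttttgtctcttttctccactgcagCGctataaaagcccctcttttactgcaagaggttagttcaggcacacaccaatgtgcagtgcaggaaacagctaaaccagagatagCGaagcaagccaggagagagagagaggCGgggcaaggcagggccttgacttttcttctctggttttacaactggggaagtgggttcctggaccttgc
The stretches hold 20, 11 and 4 CpG dinucleotides. Over the whole 300 bases, the promoters of Zic1, Msx1, Msx2, Pax7, Zic5 and Lmx1a had 31, 29, 22, 17, 15 and 12 CpGs, above the median of 7 over 32851 mouse promoters, and that of Olig3 had 4, more than 31.4% of them. The GC content was 46.0% for Olig3 and 59.3% to 70.0% for the other 6, beside a median of 52.7%. Of the motifs searched on both strands, the GLI site GACCACCCA, by which Shh signalling acts, is in 0.253% of all promoters, the TCF/LEF sites CTTTGAT and CTTTGTT, of Wnt signalling, are in 3.73% and 5.85%, and the DR5 retinoic acid element is in 0.00913%. None was found in the 7 promoters, which says only that these letters are not in this window.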

How the data were processed

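RNA of 5 samples of mouse cells, 1 per time point, was measured on Agilent one-colour arrays and read with Agilent Feature Extraction 10.5.1. The authors deposited the scanner output, in which the intensity of each spot was background-subtracted by the scanner software and arrays were left unnormalized against each other. A deposited table of log2 values equalled, for 100.0% of probes within 0.01, the log2 processed intensity minus the 75th percentile of the array. Its scale and centring are thus known, and all its columns belonged to these samples.

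Control and outlier spots were left out, log2 intensities were averaged per probe and quantile-normalized (limma 3.58.1, R 4.3.3), because the study names a quantile analysis. Later steps were run in Python 3.11.15 (numpy 2.4.6, pandas 2.3.3, matplotlib 3.10.9) and tested on simulated data. Probes were named through RefSeq transcript accessions, and of 55681 mouse probes 26300 matched a symbol. The probe brightest on average stood for its gene. A probe counted as well above background where over 50% of its spots carried the flag. Below that, its own value or the array's lowest value well above background was taken, whichever was higher, which makes a change "at least" that size. Genes dim on both arrays had no value, and those with a bright side under that limit were given no fold and counted as 0 in medians. The size rule for a call was 2-fold. Since no time point had a second array, no p-value was computed, and the number of arrays limits the precision.

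The 9 genes and all lists were chosen with earlier results of these data known, and the lists were not picked on the values of their genes. From each list at most 6 genes past 2-fold, by largest change, were named, though not every gene that met this rule is reported here, besides those needed to check a label and the 3 genes most like each dorsal factor. Alternatives were the 75th percentile shift, no normalization, normexp (offset 50, on median spot signals) before quantile normalization, the authors' log2 table, a second detection flag (positive and significant), dim probes kept as measured, probes well above background on both arrays only, a detection level at the 95th percentile of spike-in probes, and averaging the probes of a gene. Promoters came from RefSeq (GRCm38.p6), and those of Pax3 and Zic2 were not used here.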

Additional observations from a re-analysis of the deposited data

How the results depend on the processing

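The 75th percentile shift and the deposited log2 values are the same scaling and gave the same counts of dorsal factors. From ES to Day2, 2 dorsal factors were higher (Olig3 and Pax7) after the 75th percentile shift, with the deposited values and without normalization, in place of 1. The number lower was 0 under those 3 settings, after normexp and at the spike-in detection level, and 2 with the mean over all probes (Lmx1a and Pax3). From ES to Day3 the number higher was 0 after normexp, and 2 (with Pax7) under the other detection flag and without a filter on dim probes. From ES to Day7 the number lower was 3 where both arrays had to be well above background. From Day4 to Day7 the number higher was 2 (with Pax7) under the other flag and without the filter, and the number lower was 2 without normalization and after normexp. The log2 change from Day2 to Day3 of Lmx1a was reversed to -0.14 by the shift and with the deposited values, and to -0.88 without normalization. From Day4 to Day7 without normalization that of Msx2 was 0.05 and that of Zic1 0.07. The lower limits given as "at least" move with the lowest measurable level: over the settings that of Dbx1 from ES to Day4 ran from 4.77 to 8.45, of Neurog2 from 3.79 to 6.37, and from ES to Day7 that of Shh from 6.13 to 10.06 and of Sox9 from 3.95 to 6.01. Causes were not tested. The counts of dorsal factors from ES to Day4 and of those well above background stayed within 1.5 times. Of the single changes, 370 stayed within the combined error, 117 moved beyond it and 5 were counted as reversed. The 117 also hold changes of sign. Without normalization the change from Day2 to Day3 went from 0.31 to -1.24 for Pax3 and from 0.55 to -0.69 for Msx1.

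The scaling moved the share of higher calls over all genes: from ES to Day2 it was 43.9%, and 70.2% after the shift and 82.9% without normalization, from ES to Day3 58.1%, 45.9% and 16.2%, and from Day2 to Day3 62.6%, 25.5% and 3.41%. It also moved the median of all genes, from ES to Day7 from -0.07 to -0.35 after the shift, and without normalization from ES to Day4 to -1.07 and from Day4 to Day7 to 1.06. Relative to those medians Msx2 and Zic1 lay below all genes from Day4 to Day7 also without normalization. No paired analysis was possible because every group is a single array, and a slide block could not be fitted, Day7 being the only array of its slide.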
